A study of Mus musculus with 50 samples.

Results

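The genes of the major histocompatibility complex (MHC) and of antigen presentation were followed in mouse thyroid after antibodies that block Notch signalling. They comprised 10 genes chosen by symbol, and all 10 were found among the 52636 genes of the deposited table of read counts. Class II was represented by H2-Aa (ENSMUSG00000036594), H2-Ab1 (ENSMUSG00000073421), H2-Eb1 (ENSMUSG00000060586), Cd74 (ENSMUSG00000024610) and Ciita (ENSMUSG00000022504). Class I was represented by B2m (ENSMUSG00000060802), H2-K1 (ENSMUSG00000061232) and H2-D1 (ENSMUSG00000073411), and peptide loading by Tap1 (ENSMUSG00000037321) and Psmb8 (ENSMUSG00000024338). The study measured RNA by sequencing in 50 whole-thyroid libraries of male C57BL/6 mice, in 10 groups of 5. Every mouse received a single intraperitoneal dose of antibody, at 10 to 14 weeks of age per the treatment protocol and 10 to 12 weeks per the series' design text. Controls received anti-ragweed (RW) at 40 mg per kg, with dissection after 15 hours, 5 days or 7 days. Ligand blockade (aJ1aJ2) combined anti-Jag1 with anti-Jag2, 20 mg per kg each, sampled 15 hours, 5 days and, in 2 separate sets, 7 days later. Receptor blockade (aN1aN2) combined anti-Notch1 at 5 with anti-Notch2 at 10 mg per kg, sampled at 15 hours and 5 days. The second 7-day set held aJ1aJ2 beside a triple combination (aN1aN2aN3) that added anti-Notch3 at 20 mg per kg to the same doses of the other two, and an RW group of that set was not analysed here. The series' design also mentions injection of thyroid hormone, which the sample labels do not assign.

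MHC class I molecules are carried by nearly all nucleated cells and display peptides from the cell's own proteins to CD8 T cells. The heavy chains H2-K1 and H2-D1 pair with beta-2 microglobulin (B2m), the immunoproteasome subunit Psmb8 takes part in making the peptides, and the transporter subunit Tap1 carries them into the endoplasmic reticulum. Class II molecules are found mainly on dendritic cells, macrophages and B cells and display engulfed protein to CD4 T cells. H2-Aa and H2-Ab1 encode the chains of I-A, H2-Eb1 the beta chain of I-E, Cd74 the invariant chain that guards the groove, and Ciita the transactivator on which class II transcription depends. Interferons raise both classes in many tissues, and thyroid epithelium can be made to carry class II by interferon gamma.

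Since the members fall into 2 groups of genes that share promoter elements by textbook knowledge, the 180 bases upstream of the annotated start are shown for 2 class II and 3 class I genes. The sequences come from RefSeq on GRCm38.p6, on the gene's own strand and read 5′ to 3′. They lie outside the exons, and the last base printed is the base before the start. Of the 10 members, 7 had an entry in the promoter table. H2-K1 had 2 entries, of which the first was used, so its stated distances depend on that choice. Capitals mark matches, on either strand, to CCAAT, to the cyclic AMP response element core TGACG, to the X1 box of class II promoters, to the kappaB palindrome, or to a longer and a shorter (GAANNGAAA) pattern of interferon regulatory factor (IRF) sites.
H2-Aa: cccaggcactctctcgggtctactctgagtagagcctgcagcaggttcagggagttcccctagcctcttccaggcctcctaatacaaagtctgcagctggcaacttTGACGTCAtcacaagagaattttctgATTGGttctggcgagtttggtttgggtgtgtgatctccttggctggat
H2-Eb1: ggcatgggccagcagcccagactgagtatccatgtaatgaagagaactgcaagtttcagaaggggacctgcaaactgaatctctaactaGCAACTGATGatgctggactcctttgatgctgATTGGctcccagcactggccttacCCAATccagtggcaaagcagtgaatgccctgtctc
B2m: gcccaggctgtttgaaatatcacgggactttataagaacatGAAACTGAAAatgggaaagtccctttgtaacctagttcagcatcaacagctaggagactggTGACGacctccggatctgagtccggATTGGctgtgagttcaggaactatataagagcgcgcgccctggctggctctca
H2-K1: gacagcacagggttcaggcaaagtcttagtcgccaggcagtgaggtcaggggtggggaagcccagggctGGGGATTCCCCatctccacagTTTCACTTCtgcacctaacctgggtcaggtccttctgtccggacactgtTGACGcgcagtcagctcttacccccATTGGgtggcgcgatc
H2-D1: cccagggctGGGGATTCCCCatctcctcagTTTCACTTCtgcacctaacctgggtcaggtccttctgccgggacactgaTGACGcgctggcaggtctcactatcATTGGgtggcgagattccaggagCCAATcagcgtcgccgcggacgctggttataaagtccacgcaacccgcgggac
The H2-Aa stretch lies at chr17:34287824-34288003 on the minus strand, and its capitals are a pair of overlapping TGACG matches from 74 bases upstream and a CCAAT match on the opposite strand from 48 bases. The H2-Eb1 stretch, at chr17:34305687-34305866 on the plus strand, held the X1 box from 91 bases upstream, followed by CCAAT matches from 59 and 35 bases. For B2m, at chr2:122147507-122147686 on the plus strand, the longer IRF pattern was matched from 139 bases, TGACG from 78 and CCAAT from 53. The H2-K1 stretch lies at chr17:34000348-34000527 on the minus strand, and the H2-D1 stretch at chr17:35262914-35263093 on the plus strand. Both carried the kappaB palindrome, from 111 and 171 bases upstream respectively, then GAANNGAAA on the opposite strand, TGACG and CCAAT in the same order. Over 27025 promoters of the same length, CCAAT was matched in 28.2%, TGACG in 15%, the X1 box in 0.455%, the kappaB palindrome in 0.0222%, the longer IRF pattern in 2.07% and GAANNGAAA in 4.41%. Among the other members, Tap1 (chr17:34187376-34187555, plus strand) had TGACG from 86 bases upstream and Psmb8 (chr17:34198015-34198194, plus strand) had no match to any of these letters in its window. These matches are descriptions of sequence, and no factor binding was measured.

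The libraries held 15271242 to 52835846 counts, and the 10 members together took 0.0332 to 0.396% of a library's counts (median 0.175%). Thyroglobulin (Tg), the thyroid's hormone precursor, took 0.450 to 42.4% of counts (median 28.5%), so thyroid RNA was present in every library in very unequal amounts. Follicular markers summed to 13546 to 49158 CPM (counts scaled to a common library size by the trimmed mean of M values, TMM) in the second 7-day set and 8070 to 508496 CPM in the other groups. Group medians were 15014 and 35432 CPM in that set and 254900 to 454110 CPM in the other groups. Outside that set, only replicate 3 of RW (8070) and replicate 3 of aJ1aJ2 (25452), both at 5 days, fell below 49158 CPM. The part of this difference in the members' values was not tested. Skeletal muscle markers took 0.0395 to 12.1% of counts, with 9 libraries above 5%, and RW at 5 days replicate 3 stood furthest apart, with the least Tg and the most muscle. Each of the 10 T cell, 9 thymocyte and 10 B cell markers had counts in every group, except Ptcra in aJ1aJ2 of the first 7-day set and Rag1 in aN1aN2aN3, which were at 0. In bulk tissue, fewer cells of a type and less RNA per cell cannot be told apart. The labels do not say that libraries of a group came from separate mice, so p-values measure the spread between libraries.

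Per unit of transcript length, class I heavy chain, B2m and Cd74 RNA stood highest. In RW at 15 hours H2-K1 was at 84.0 ± 21.4 FPKM (fragments per kilobase of transcript, scaled to sequencing depth, mean ± SD, n = 5), B2m at 78.5 ± 19.2, H2-D1 at 62.6 ± 13.7 and Cd74 at 62.1 ± 19.4. These 4 neighbours differed by no more than 1 SD. H2-Aa followed at 32.7 ± 9.63 FPKM, H2-Ab1 at 19.7 ± 6.00 and H2-Eb1 at 12.6 ± 3.86, each with a range that overlapped the next. The loading genes were lower without overlap, Psmb8 at 6.31 ± 1.57 FPKM (4.26 to 8.69) and Tap1 at 2.76 ± 0.340 (2.30 to 3.21). Ciita, whose product acts in the nucleus on the class II promoters, was at 0.154 ± 0.0247 FPKM. The order at the top was not the same in every group. B2m was at 145 ± 63.0 FPKM in aJ1aJ2 of the second 7-day set. There H2-D1 was at 58.9 ± 16.0, H2-K1 at 55.6 ± 13.7, Cd74 at 44.2 ± 19.5 and H2-Aa at 41.7 ± 16.2. B2m also had the highest mean in aJ1aJ2 (112 FPKM) and aN1aN2 (82.1) at 15 hours and in aN1aN2aN3 (104). The same held for RW (65.9), aJ1aJ2 (59.0) and aN1aN2 (60.4) at 5 days. H2-K1 was highest in both groups of the first 7-day set. Class I heavy chain genes have near-identical relatives, and with 50-base single-end reads the authors' counting could assign shared reads to either, so their levels are uncertain.

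**Figure D1:**
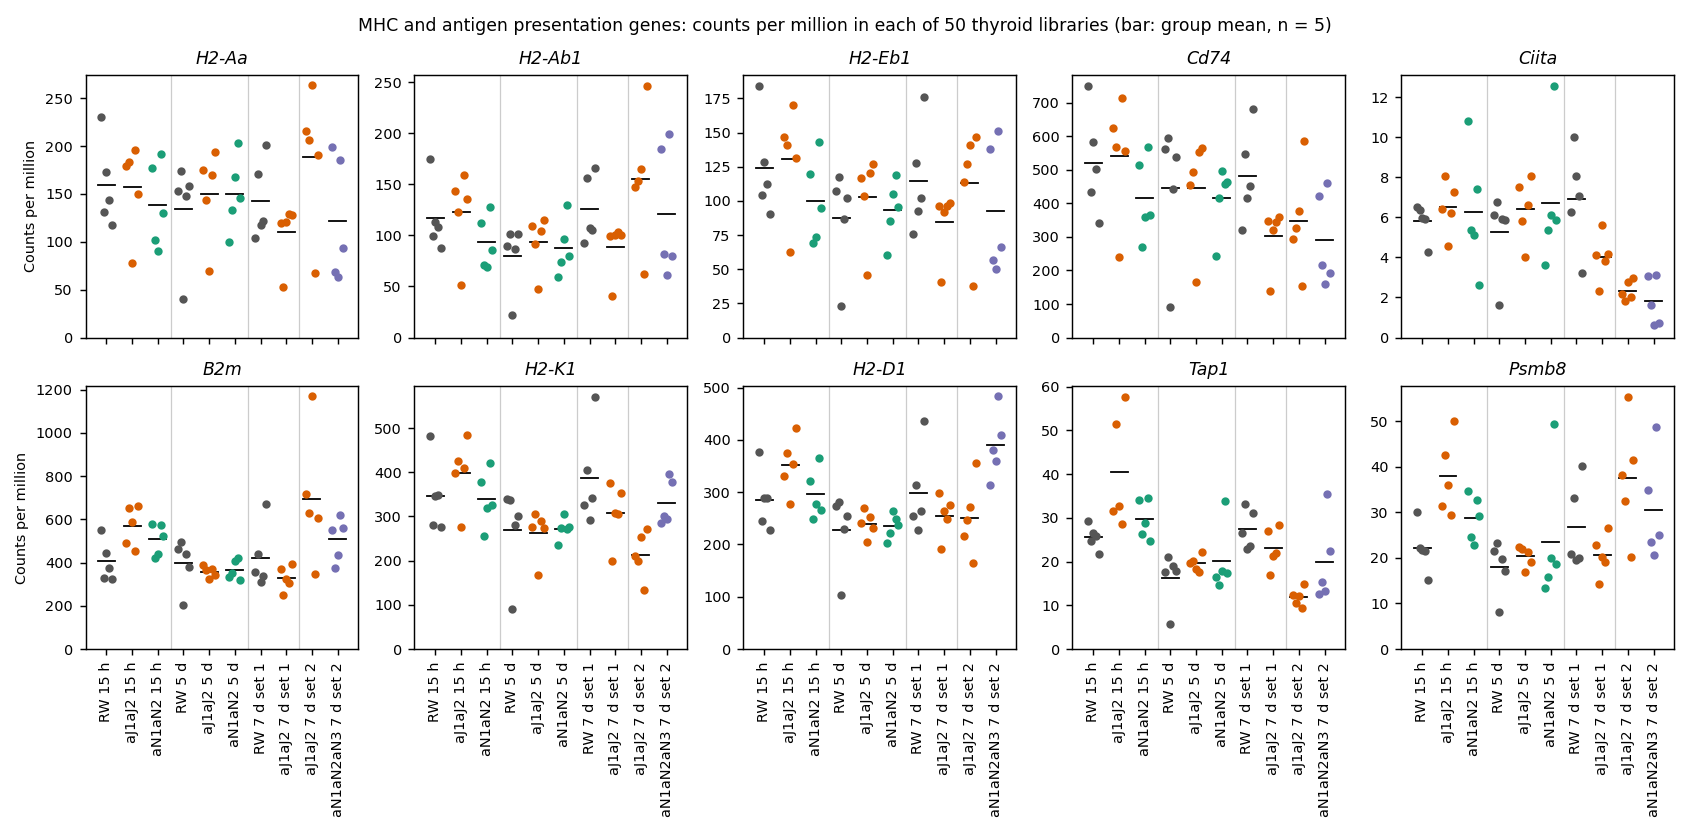
CPM (TMM-scaled, linear axis from 0) of the 10 genes in each library, by group, with the group mean as a bar. Each panel has its own axis. For H2-Aa, H2-Eb1 and Cd74 the 5 libraries of most groups spread as widely as the group means differ. RW at 5 days replicate 3 is the lowest library of its group for every gene shown.

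Across groups the lowest and highest means of each of the 4 class II structural genes lay more than 1 SD apart. The means of Ciita were lowest in the second 7-day set. Cd74 group means ran from 291 ± 140 CPM in aN1aN2aN3 through 302 ± 92.9 in aJ1aJ2 of the first 7-day set, 347 ± 157 in aJ1aJ2 of the second, 416 ± 100 and 416 ± 123 in aN1aN2 at 5 days and 15 hours, 446 ± 207 in RW and 447 ± 163 in aJ1aJ2 at 5 days, 483 ± 137 in RW at 7 days and 522 ± 156 in RW to 541 ± 179 in aJ1aJ2 at 15 hours. No neighbours in this order differed by more than 1 SD, but sorted means lie close by construction, and the ends of the order lay further apart. H2-Aa means ran from 110 ± 32.1 CPM in aJ1aJ2 of the first 7-day set to 189 ± 73.1 in aJ1aJ2 of the second, with the other 8 groups between 122 and 159 CPM. H2-Ab1 ranged from 80.2 ± 33.3 CPM in RW at 5 days to 155 ± 65.3 in aJ1aJ2 of the second 7-day set, and H2-Eb1 from 84.7 ± 24.9 in aJ1aJ2 of the first to 130 ± 40.7 in aJ1aJ2 at 15 hours. Ciita was the most uneven of the 10, with 20.5 times between its lowest and highest library. It stood at 1.84 ± 1.22 CPM in aN1aN2aN3 and 2.34 ± 0.492 in aJ1aJ2 of the second set, against 4.02 to 6.93 CPM in the other 8 groups. The libraries of that aJ1aJ2 group (1.81 to 2.95) overlapped those of aJ1aJ2 in the first set (2.32 to 5.62). The lowest libraries of aN1aN2 at 15 hours (2.63) and RW at 5 days (1.63) also reached that low. Exons of Ciita overlap Dexi and those of Cd74 overlap Mir5107 in the GENCODE M21 annotation, and shared reads make their counts uncertain.

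The class I and loading genes varied less within groups. The median coefficient of variation within a group was 16.1% for H2-D1, 21.2% for H2-K1, 18.5% for B2m, 18.5% for Tap1 and 28.4% for Psmb8, against 30.5 to 32.7% for the 5 class II genes. B2m group means ran from 329 ± 56.6 CPM in aJ1aJ2 of the first 7-day set to 694 ± 298 in aJ1aJ2 of the second. H2-K1 ranged from 214 ± 53.8 CPM in aJ1aJ2 of the second 7-day set to 399 ± 75.9 in aJ1aJ2 at 15 hours, and H2-D1 from 228 ± 72.9 in RW at 5 days to 390 ± 63.3 in aN1aN2aN3. Tap1 ran from 11.9 ± 2.03 CPM in aJ1aJ2 of the second 7-day set to 40.4 ± 13.2 in aJ1aJ2 at 15 hours, and Psmb8 from 18.0 ± 5.92 in RW at 5 days to 37.9 ± 8.49 in aJ1aJ2 at 15 hours. The 3 groups at 5 days had the lowest H2-D1 means of all, 228 to 240 CPM, and Tap1 means of 16.3 to 20.1 CPM. Times and sets were not compared by a test of level, since each time or set has its own libraries and no label ties them across times.

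At 15 hours after aJ1aJ2, the class I and loading genes were higher in mean than in RW, without passing the test. In a list of interferon signalling genes chosen with earlier results of these data known, 7 of 18 tested genes rose. Of the 10 members 0 were called in edgeR's quasi-likelihood test (adjusted p below 0.05, Benjamini-Hochberg over 18513 genes), where 0.573% of all genes were called. Unadjusted p-values below 0.05 were found for 3 members, against 6.59% of all genes, and DESeq2 called 1 member. The median log2 fold change was 0.18 over the members and -0.03 over all genes. Psmb8, the immunoproteasome subunit, was at 30.0, 22.2, 21.7, 21.5 and 15.2 CPM in the RW libraries and at 31.4, 42.5, 36.1, 29.5 and 50.1 in the aJ1aJ2 libraries. The groups overlapped only through RW replicate 1. The log2 fold change of Psmb8 was 0.78 (SE 0.19, 95% interval 0.37 to 1.18, adjusted p = 0.129 in edgeR), with 5 of 5 treated libraries above the control mean. Psmb8 was called by DESeq2 and in edgeR without RW replicate 1, where the adjusted p was 0.0479, and the adjusted p ran up to 0.354 when other libraries were left out.

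Tap1, the transporter subunit, was at 29.3, 24.6, 26.5, 25.9 and 21.7 CPM in RW and at 31.6, 51.5, 32.7, 28.6 and 57.6 after aJ1aJ2. Again RW replicate 1 alone reached into the treated range. Its log2 fold change was 0.66 (SE 0.19, adjusted p = 0.276 in edgeR). Exons of Tap1 overlap those of Psmb9, and those of Psmb8 overlap Gm20496, both on the opposite strand, and the strand setting of the counting is not given in the sources used here. B2m was at 548, 330, 446, 377 and 325 CPM in RW and at 492, 655, 589, 454 and 663 after aJ1aJ2, a log2 fold change of 0.49 (SE 0.18, adjusted p = 0.625 in edgeR). The heavy chains differed less, H2-D1 by 0.30 (SE 0.16) and H2-K1 by 0.20 (SE 0.19) on the log2 scale. In the same libraries the class II genes had log2 fold changes between -0.02 (H2-Aa) and 0.17 (Ciita), with SEs of 0.27 to 0.29. Cd74 was at 751, 435, 582, 502 and 340 CPM in RW and at 626, 567, 241, 714 and 555 after aJ1aJ2, and the groups overlapped almost fully. The low aJ1aJ2 library, replicate 3, held 5.54% skeletal muscle marker counts, and the part of muscle in the result was not tested. No class II member was called in edgeR with that library left out, nor without all libraries rich in muscle markers.

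**Figure D2:**
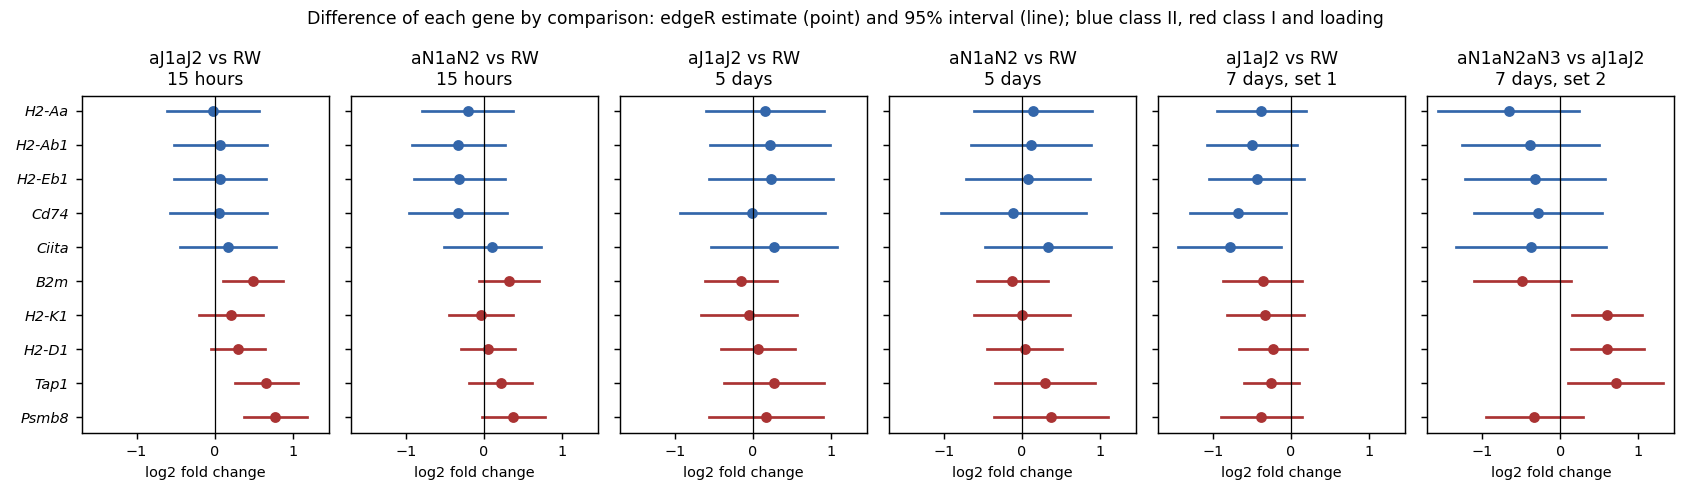
The log2 fold change of each gene in the 6 comparisons, as the edgeR estimate (point) with its 95% interval (line), class II in blue and class I and loading in red. Most intervals include 0, and none of the 60 points passed the adjusted threshold. At 15 hours after aJ1aJ2 the interval of Psmb8 lies between 0.37 and 1.18, and in the first 7-day set all 10 points lie below 0.

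After aN1aN2 at 15 hours Psmb8, B2m and Tap1 were higher in mean than in RW, the 4 class II structural genes were lower, and the other 3 members lay near 0, without a call. The edgeR test called 0 of 10 members, against 1.68% of all genes, and 0 members had an unadjusted p below 0.05, against 14.4% of all genes. DESeq2 called 0 members too, and all 10 overlapped the RW range, where 5.21% of all genes did not. Psmb8 was at 34.6, 24.6, 22.9, 32.6 and 29.1 CPM, a log2 fold change of 0.37 (SE 0.19, adjusted p = 0.387 in edgeR) against the same RW libraries as above. B2m was at 579, 423, 440, 574 and 521 CPM, 0.32 higher (SE 0.18, adjusted p = 0.437 in edgeR). Every treated library was above the RW mean for both genes, and both overlapped the RW range. The 4 class II structural genes were lower in mean, H2-Aa by -0.21, H2-Eb1 by -0.31, H2-Ab1 by -0.33 and Cd74 by -0.33 on the log2 scale (SE 0.27 to 0.29), and Ciita was at 0.11. Tap1 was at 0.21, H2-D1 at 0.05 and H2-K1 at -0.03, and no difference between the classes was tested. The authors' FPKM scaling, relative to the count size factors and to the first library, was 1.14 to 1.18 in these aN1aN2 libraries and 0.971 to 0.9825 in the RW libraries, so whatever set that scaling apart cannot be told apart from the treatment. The median over the members was 0.01, as over all genes. Both 15-hour comparisons share their RW libraries and are therefore given side by side, with no count of shared direction.

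The genes that accompany the members in their pathways were counted from lists of 20 class I pathway genes, 17 class II pathway genes and 19 genes of interferon signalling. These lists were chosen with earlier results of these data known. The shares of all genes given beside their counts are therefore descriptions and no test of the lists. At 15 hours after aJ1aJ2, 1 of 20 class I pathway genes rose, 0 of 16 tested class II pathway genes passed, and 7 of 18 tested interferon genes rose, against 0.346% of all genes called higher. None of the 3 lists had a gene called lower, against 0.227% of all genes. The interferon list had a median log2 fold change of 0.92. The class I pathway gene was H2-T23, a non-classical class I heavy chain that presents to NK and T cell receptors, at 53.9 ± 19.6 CPM after aJ1aJ2 and 27.1 ± 5.26 in RW. The H2-T23 groups did not overlap, as for 1.72% of all genes, and its log2 fold change was 0.99 (SE 0.20, adjusted p = 0.0443 in edgeR). That call was made in only 4 of the 15 fits with 1 library left out, and it was lost without the libraries rich in muscle markers.

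The interferon genes that rose were Irf7, a transcription factor of the type I response (57.7 ± 34.3 against 9.68 ± 1.24 CPM, log2 fold change 2.57, SE 0.35), the ubiquitin-like Isg15 (2.58), the RNA-binding Ifit1 (2.54) and its relative Ifit3 (2.27). The guanylate-binding proteins Gbp3 (1.78) and Gbp2 (1.48) and the signal transducer Stat2 (0.98) completed the 7. Irf7 was between 19.4 and 102 CPM after aJ1aJ2 and between 8.12 and 11.5 in RW, so the lowest treated library was above every control. The count of 7 was 3 without the libraries rich in muscle markers and 4 without any 1 of RW replicates 2 to 5 or aJ1aJ2 replicates 2, 3 and 5, with Irf7 and Isg15 called in every one of these fits. Among marker genes of other cells, Siglech of plasmacytoid dendritic cells was lower after aJ1aJ2 (log2 fold change -1.89, adjusted p = 0.0224 in edgeR), while the 9 dendritic markers summed to 57.6 to 93.2 CPM against 55.5 to 72.8 in RW. Macrophage markers summed to 422 to 476 CPM after aJ1aJ2 and 281 to 4379 in RW, and their part in the result was not tested.

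After aN1aN2 at 15 hours, 5 of 18 interferon genes rose, against 0.880% of all genes called higher, and 0 passed in either of the other lists. The difference in FPKM scaling between these aN1aN2 and RW libraries, given above, cannot be told apart from the treatment here or in the change of the aN1aN2 effect with time. No gene of the 3 lists was called lower, against 0.799% of all genes. They were Ifit1 (log2 fold change 2.37), Irf7 (2.24), Isg15 (2.18), Ifit3 (1.83) and Gbp3 (1.40). Irf7 was at 45.9 ± 6.60 CPM, and each treated library was above every RW library. H2-T23 was at 41.4 ± 2.90 CPM after aN1aN2 and was not called there. The count of 5 was 3 without the libraries rich in muscle markers and 3 without RW replicate 2 or RW replicate 4. S100a9 of neutrophils was higher after aN1aN2 (log2 fold change 5.37, adjusted p = 0.0380 in edgeR), and the 8 neutrophil markers summed to 4.30 to 130 CPM there against 1.90 to 2.57 in RW, with Ly6g at 0 in RW.

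**Figure D3:**
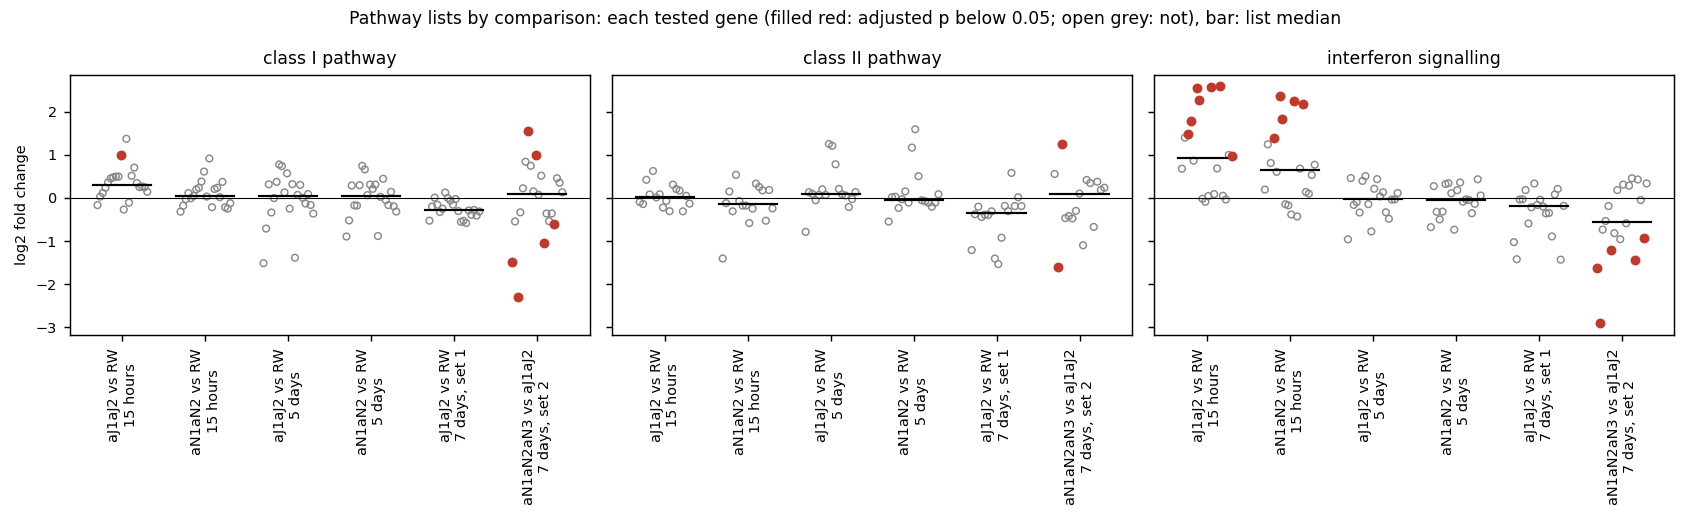
The log2 fold change of each tested gene of the 3 pathway lists in the 6 comparisons, with filled red points for adjusted p below 0.05, open grey points for the rest and a bar at the list median. Filled points stand high in the interferon panel at 15 hours, with 7 after aJ1aJ2 and 5 after aN1aN2, and in the second 7-day set they stand mostly below 0.

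At 5 days no member was called by edgeR or DESeq2, and B2m alone was called by voom with quality weights. In edgeR, 0 of 10 members were called after aJ1aJ2 (0.179% of all 18434 genes tested), and after aN1aN2, 0 of 10 (0% of all genes, with 1848 genes at an unadjusted p below 0.05 and 402 called by DESeq2). Log2 fold changes ran from -0.15 (B2m, SE 0.21) to 0.27 (Ciita and Tap1, SE 0.38 and 0.30) after aJ1aJ2. After aN1aN2 they ran from -0.12 (B2m, SE 0.21) to 0.37 (Psmb8, SE 0.34). No member had an unadjusted p below 0.05 in either comparison, and DESeq2 called 0 members. Voom with quality weights put B2m at -0.32 (adjusted p = 0.0278) after aJ1aJ2 and -0.38 (adjusted p = 0.0277) after aN1aN2, where it called 3476 and 1523 genes in all. All 10 members overlapped the RW range in both, where 3.74% of all genes after aJ1aJ2 and 2.1% after aN1aN2 did not. The 95% interval of B2m was -0.61 to 0.30 after aJ1aJ2, and that of Cd74 was -0.93 to 0.92, so differences of that size were not detectable. The 3 pathway lists had 0 genes called in either comparison, against 0.0759% called higher and 0.103% lower of all genes after aJ1aJ2. Without the libraries rich in muscle markers, 1600 genes in all were called after aJ1aJ2, and the class I pathway list had 5 lower and 1 higher. Without RW replicate 3, 197 genes in all were called after aJ1aJ2, and that list had 2 lower. After aN1aN2 it had 2 lower without the libraries rich in muscle markers, where 182 genes in all were called. These were Calr and Pdia3, named after their values were seen.

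The control group at 5 days held the library with the lowest level of the study for 9 of 10 members, all but Ciita. RW replicate 3 had H2-Aa at 40.5 CPM, where the other 4 RW libraries were at 153, 174, 147 and 158. Cd74 was at 90.9 CPM there against 562, 596, 443 and 540, H2-K1 at 90.6 against 339, 337, 280 and 301, and Tap1 at 5.79 against 17.7, 21.1, 18.9 and 17.8. The same library held 0.450% Tg and 12.1% muscle marker counts. With it, 7 of 10 members had a positive log2 fold change after aJ1aJ2 and 8 of 10 after aN1aN2. Without it the counts were 2 of 10 (-0.31 to 0.06) and 3 of 10 (-0.37 to 0.19), so the direction of the members at 5 days turned on that library. Without aN1aN2 replicate 4, 4 of 10 were positive after aN1aN2 (-0.18 to 0.02), so that direction turned on this library as well. Without all libraries rich in muscle markers, 6 of 10 were positive after aJ1aJ2 and 0 of 10 after aN1aN2, still with 0 called.

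A pair of treated libraries stood apart in the opposite senses. In aJ1aJ2 at 5 days replicate 3, with 2.39% Tg and 8.33% muscle marker counts, Cd74 was at 166 CPM and the other 4 libraries were at 455, 493, 554 and 566. In aN1aN2 at 5 days replicate 4, Psmb8 was at 49.5 CPM against 13.4, 15.8, 19.9 and 18.6, Tap1 at 33.8 against 16.5, 14.7, 17.9 and 17.4, and Ciita at 12.5 against 3.63, 5.38, 6.13 and 5.87. Thymocyte markers summed to 1538 CPM in that library, and to no more than 502 CPM in any other. The same aN1aN2 library held 5.04% muscle marker and 13.9% Tg counts, and the part of these tissues in its values was not tested. H2-K1 and H2-D1 were within the range of their group in that library, at 271 and 248 CPM.

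At 7 days in the first set, all 10 members were lower in mean after aJ1aJ2 than in RW, and 0 passed the edgeR test. No gene of the 16954 tested was called (0%), with 1968 at an unadjusted p below 0.05 (11.6%) and 417 called by DESeq2, which called 0 members. Unadjusted p-values below 0.05 were found for 2 members, and all 10 overlapped the RW range, where 3.59% of all genes did not. Ciita was at 6.28, 10.0, 8.08, 7.05 and 3.22 CPM in RW and at 4.13, 2.32, 5.62, 3.81 and 4.19 after aJ1aJ2, a log2 fold change of -0.79 (SE 0.30, adjusted p = 0.357 in edgeR). Voom with quality weights called Ciita alone of the members (-0.84, adjusted p = 0.0345), among 595 genes in all. Cd74 was at 319, 548, 415, 453 and 681 CPM in RW and at 349, 138, 321, 346 and 359 after aJ1aJ2, a log2 fold change of -0.68 (SE 0.28, adjusted p = 0.393 in edgeR). The Cd74 values of aJ1aJ2 were close together except for replicate 2. RW replicate 1 lay just below the close values and above replicate 2. H2-Ab1 differed by -0.50, H2-Eb1 by -0.44 and H2-Aa by -0.38 on the log2 scale (SE 0.26 to 0.28).

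The class I and loading genes were also lower in mean in that set. Psmb8 differed by -0.38, B2m by -0.37, H2-K1 by -0.33, Tap1 by -0.25 and H2-D1 by -0.23 on the log2 scale (SE 0.16 to 0.24). The median over the 10 members was -0.38, where that over all genes was 0.01. For 9 of 10 members every aJ1aJ2 library was below the RW mean, and for Tap1 4 of 5 were. RW libraries lay below their own mean too. For B2m, RW libraries at 358, 312 and 339 CPM were below the mean of 423, and those at 438 and 670 above. The members vary together, so these are not separate observations, and the share over all genes was not counted. All 10 stayed negative in each fit with 1 library left out, with a range of -0.65 to -0.15 without aJ1aJ2 replicate 2. That library held 8.03% muscle marker and 8.87% Tg counts, and it had the lowest level of its group for each of the 10 members. T cell markers summed to 5.46 to 9.55 CPM after aJ1aJ2 and 10.6 to 329 in RW, thymocyte markers to 17.3 to 42.6 against 17.7 to 502, and their part in the result was not tested. Without RW replicate 2, the library rich in thymocyte markers, the range was -0.63 to -0.17.

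In the second 7-day set the class I heavy chains were higher in mean and B2m lower after aN1aN2aN3 than after aJ1aJ2. Both groups had received antibodies, so this compares 2 treatments and not a treatment with a control. The test called 0 of 10 members, against 19.6% of the 18450 genes tested, the highest share of the 6 comparisons, and 3 had an unadjusted p below 0.05, against 35.6% of all genes. H2-K1 was at 285, 301, 294, 396 and 377 CPM after aN1aN2aN3 and at 211, 199, 255, 134 and 271 after aJ1aJ2. The H2-K1 groups did not overlap, as for 15% of all genes, and the log2 fold change was 0.60 (SE 0.21, adjusted p = 0.0609 in edgeR). H2-D1 was at 314, 380, 360, 484 and 410 CPM against 216, 246, 272, 165 and 355, a log2 fold change of 0.60 (SE 0.21, adjusted p = 0.0650 in edgeR). H2-D1 overlapped through aJ1aJ2 replicate 5. Without that library both heavy chains were called (adjusted p = 0.0371 and 0.0195 in edgeR), as they were by DESeq2, with voom quality weights and in a fit of all 50 libraries. Voom with quality weights, which called 8248 genes in all, also called H2-Aa (-1.08, adjusted p = 0.0170) and B2m (-0.64, adjusted p = 0.0245). The fit of all 50 libraries also called Tap1. Against so many genes called, nothing is read about the members from these calls.

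Tap1 was at 12.6, 15.4, 13.4, 35.4 and 22.5 CPM after aN1aN2aN3 and at 12.4, 10.5, 12.0, 9.49 and 14.8 after aJ1aJ2. The Tap1 difference, 0.71 on the log2 scale (SE 0.28, adjusted p = 0.0911 in edgeR), came with its highest values in aN1aN2aN3 replicates 4 and 5. B2m was at 551, 373, 434, 620 and 558 CPM after aN1aN2aN3 and at 718, 627, 1168, 349 and 609 after aJ1aJ2, a log2 fold change of -0.48 (SE 0.29, adjusted p = 0.249 in edgeR). Psmb8 was at 34.98, 23.4, 20.5, 48.7 and 25.1 against 38.3, 32.5, 55.3, 20.2 and 41.6 CPM, a log2 fold change of -0.33 (SE 0.29). Class II genes were all lower in mean, from -0.28 (Cd74, SE 0.38) to -0.66 (H2-Aa, SE 0.41), and none had an unadjusted p below 0.05. H2-Aa was at 199, 68.7, 62.8, 186 and 93.6 CPM after aN1aN2aN3 and at 216, 207, 264, 67.5 and 191 after aJ1aJ2. The groups overlapped over most of their range, and aJ1aJ2 replicate 4, the lowest of its group, held 11.0% muscle marker and 1.15% Tg counts.

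Ratios of counts within a library do not depend on library scaling, and several were at their highest group mean in aJ1aJ2 of the second set. B2m to H2-K1 was 3.41, 3.15, 4.59, 2.61 and 2.24 in its 5 libraries and 1.93, 1.24, 1.48, 1.57 and 1.48 in aN1aN2aN3, and the means of the other 8 groups were 1.08 to 1.58. Only RW at 5 days replicate 3, at 2.25, reached the range of that group from outside. Psmb8 to Tap1 was 3.08, 3.09, 4.60, 2.13 and 2.80 after aJ1aJ2 and 2.77, 1.51, 1.54, 1.37 and 1.11 after aN1aN2aN3, against means of 0.856 to 1.15 elsewhere. The ratio H2-K1 to H2-D1 was 0.860 ± 0.0919 after aJ1aJ2 and 0.850 ± 0.0593 after aN1aN2aN3 in the second set and 1.09 to 1.29 in mean in the other groups, of which RW replicate 3 (0.884) and aJ1aJ2 replicate 3 (0.820) at 5 days lay in the range of the second set. H2-Aa to Cd74 was 0.566 ± 0.175 after aJ1aJ2 and 0.413 ± 0.0684 after aN1aN2aN3, above the means of 0.295 to 0.367 elsewhere. Ciita to Cd74 was 0.00768 and 0.00584 in the second set and 0.0116 to 0.0160 elsewhere. H2-Aa to H2-Ab1 was 1.71, 1.59 and 1.72 in mean in the 3 groups at 5 days against 1.31 to 1.46 at 15 hours. These ratios were chosen after levels had been seen, and no test was run on them.

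**Figure D4:**
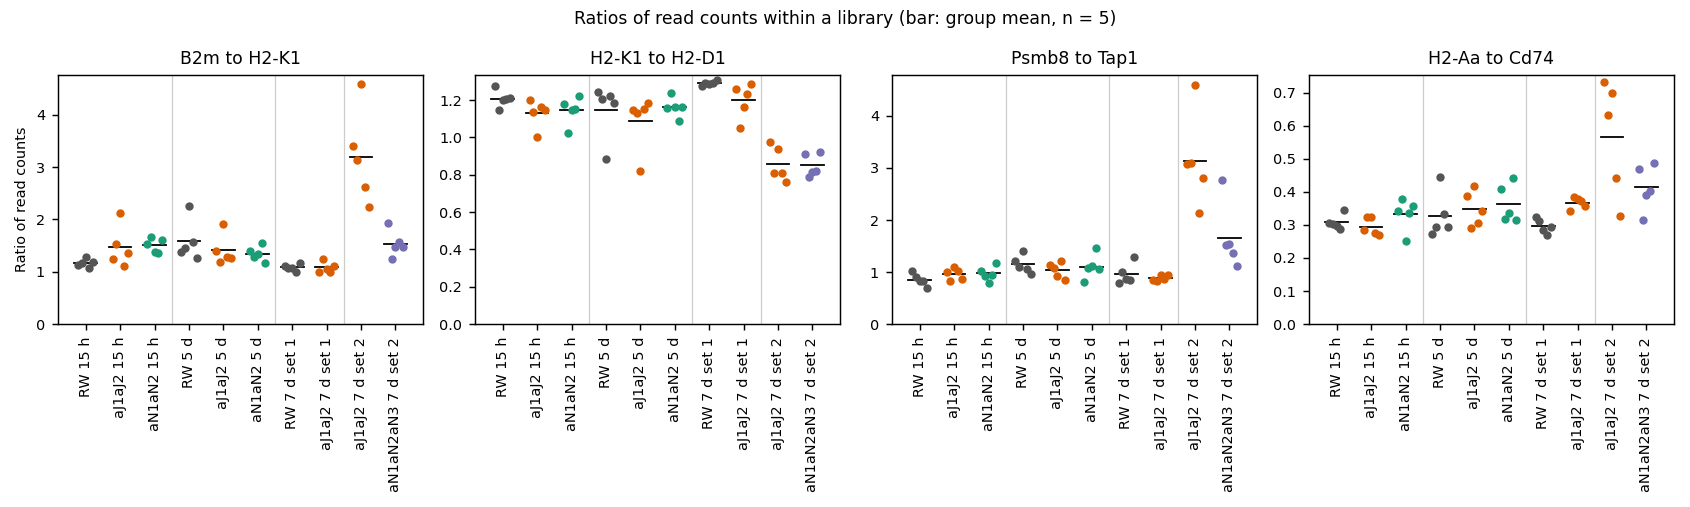
Ratios of read counts between 2 genes in each library (linear axis from 0), by group, with the group mean as a bar. B2m to H2-K1 and Psmb8 to Tap1 are highest in aJ1aJ2 of the second 7-day set, with means of 3.20 and 3.14, and H2-K1 to H2-D1 is near 0.86 in both groups of that set.

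Around the members, genes of the class I and class II pathway lists were called in both directions in the second set, and those of the interferon list only lower in edgeR. Of 20 class I pathway genes 2 were higher after aN1aN2aN3 and 4 lower, against 9.19% and 10.4% of all genes, shares from which nothing is read about the lists. H2-T23 was higher (59.9 ± 13.4 against 29.3 ± 6.76 CPM, log2 fold change 1.00), as was H2-Q6, another non-classical heavy chain (1.55). Lower were the lectin chaperone Calr (186 ± 41.1 against 513 ± 121 CPM, -1.49), the disulphide isomerase Pdia3 (-1.04), which also serves general protein folding, and the lipid-presenting Cd1d1 (-2.29). The fourth lower gene, the proteasome activator Psme2 (-0.61), fell outside the 10 genes named by the smallest p and is named after its value was seen. Of 15 tested class II pathway genes, the protease Ctsl was higher (1.24) and the co-stimulator Cd86 lower (2.03 ± 1.03 against 5.99 ± 1.74 CPM, -1.59). In the interferon list 0 of 18 were higher and 5 lower, among them the chemokines Cxcl9 (-2.91) and Cxcl10 (-1.61) and Isg15 (-1.44). The median of the interferon list was -0.56 and that of all genes -0.07. The count of 5 was 2 to 4 in every fit with 1 library left out: 2 without aN1aN2aN3 replicate 2 or aJ1aJ2 replicate 3, and 3 without aN1aN2aN3 replicate 3 or aJ1aJ2 replicates 1 or 5, and 4 otherwise. In that list 1 gene was called higher without aJ1aJ2 replicate 5. The count of 4 lower class I pathway genes was 2 without any 1 of aN1aN2aN3 replicates 2 to 5 or aJ1aJ2 replicates 1 to 3, and that of 2 higher ones was 4 without aJ1aJ2 replicate 5 and 1 without aN1aN2aN3 replicates 4 or 5 or aJ1aJ2 replicates 1 or 2.

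Cell type markers differed between the same groups. Tg was higher after aN1aN2aN3 (log2 fold change 1.31) and follicular markers summed to 27922 to 49158 CPM there against 13546 to 25490 after aJ1aJ2, while the iodide transporter Slc5a5 was lower (-1.91). Adipocyte markers summed to 224 to 1158 CPM after aN1aN2aN3 and 2343 to 4015 after aJ1aJ2. Of the 9 dendritic cell markers 3 were lower, Xcr1 (-4.64), Siglech (-3.46) and Cd209a (-1.41), and the sum was 41.0 to 61.8 CPM against 48.4 to 57.8. Of the 10 macrophage markers Adgre1 (-1.33) and Mrc1 (-1.46) were lower and Mertk (0.82) higher, with sums of 232 to 538 CPM against 328 to 666. Parathyroid markers summed to 7360 to 33390 CPM after aN1aN2aN3 and 81.8 to 54595 after aJ1aJ2. The part of these cell types in the values of the members was not tested.

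The change of an antibody's effect with time was tested in a fit of 40 libraries. Of the members 0 were called for aJ1aJ2 at 5 days minus 15 hours (0.981% of 19676 genes), for aN1aN2 at 5 days minus 15 hours (3.14%) or for aJ1aJ2 at 7 days, first set, minus 15 hours (0.300%) in edgeR, and DESeq2 called 0 in each. Voom with quality weights called B2m in the first of these (-0.62, adjusted p = 0.0242) and Ciita in the last (-0.99, adjusted p = 0.0202). Unadjusted p-values below 0.05 were found for 1, 0 and 3 members, against 12.2%, 16.5% and 7.4% of all genes. In the last of these all 10 estimates were negative, from -0.39 (H2-Aa, SE 0.47) to -1.18 (Psmb8, SE 0.41), with a median of -0.68 over the members and 0.00 over all genes. B2m stood at -0.88 (SE 0.30) and Psmb8 at -1.18, both with an adjusted p of 0.363 in edgeR, and Tap1 at -0.93 (SE 0.35, adjusted p = 0.446 in edgeR). For aJ1aJ2 at 5 days minus 15 hours B2m had the largest estimate in size, -0.66 (SE 0.30, adjusted p = 0.355 in edgeR). In each of the 3 contrasts 6 of 18 interferon genes were called lower, against 0.676%, 1.84% and 0.188% of all genes, and 0 higher, against 0.305%, 1.3% and 0.112%. All 3 contrasts use the same RW libraries at 15 hours, and some share other groups too, so they are not separate results. The 15-hour rise of interferon genes, given above, enters each contrast, and the list was chosen with earlier results of these data known. Isg15 had -2.92, -2.25 and -3.49 and Irf7 -2.16, -1.91 and -2.79 in the 3 contrasts. The counts of 6 ran from 4 to 9, 3 to 7 and 3 to 8 over fits with 1 library left out. For aN1aN2 the count was 3 without RW replicates 2 or 4 or aN1aN2 replicate 2 at 15 hours, RW replicate 2 at 5 days or aN1aN2 replicates 3 or 5 at 5 days. For aJ1aJ2 at 7 days it was 3 without RW replicate 5 at 7 days.

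Among libraries of a group the members varied together, the 4 class II structural genes and the 2 heavy chains most tightly. Levels, as log2(CPM + 1) less the group mean, were correlated over the 50 libraries, which share depth and tissue composition, so the values describe these libraries. Among H2-Aa, H2-Ab1, H2-Eb1 and Cd74 Spearman's rho was 0.86 to 0.95 (median 0.94), and H2-K1 with H2-D1 had 0.96, the highest of all pairs. B2m went most closely with Psmb8 (0.87), above its partners H2-K1 (0.78) and H2-D1 (0.76). Between the 5 class I and loading genes and these 4 class II genes rho was 0.51 to 0.81 (median 0.71), and the highest of these, Cd74 with H2-K1, was above B2m with H2-K1. Ciita had 0.63 to 0.73 with the class II genes that depend on it and 0.46 to 0.64 with class I and loading genes. Tap1 had 0.51 to 0.57 with the 4 class II genes, below its 0.74 to 0.78 with the other class I and loading genes.

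**Figure D5:**
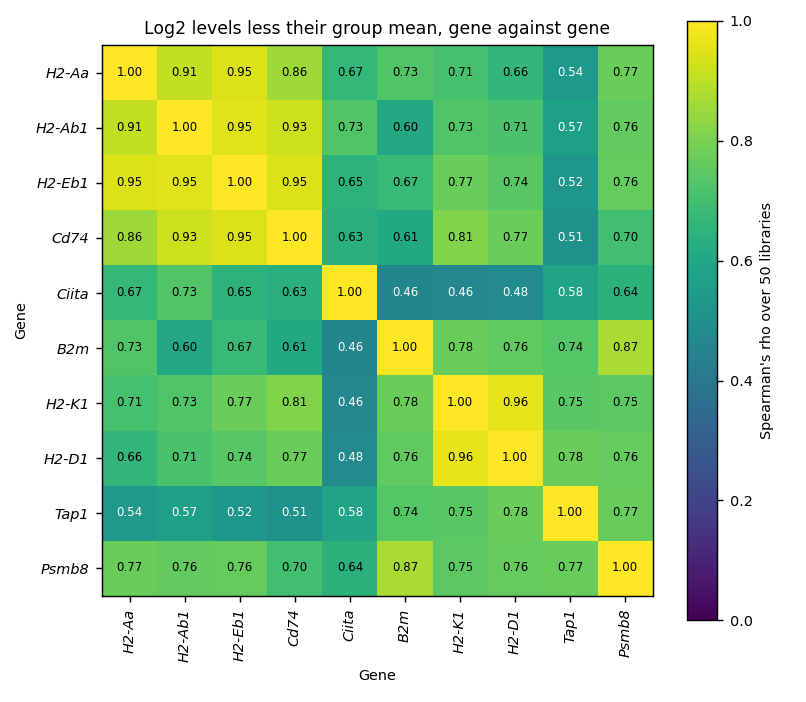
Spearman's rho between each pair of genes over 50 libraries, from log2 levels less their group mean, with the value printed in each cell. The 4 class II structural genes form a block at 0.86 or above, H2-K1 with H2-D1 is at 0.96, and the lowest values, from 0.46, are in the row of Ciita.

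Of 21536 other genes, those most like the mean of the 4 class II genes were H2-DMa (rho 0.94) and H2-DMb1 (0.86), subunits of the class II peptide exchanger, the lysosomal protease Ctss (0.86), Ly86 (0.83) and the cathepsin inhibitor Cstb (0.81). Those most like the mean of the 5 class I and loading genes were the class I gene H2-Q4 (0.89), Ctss (0.87), the immunoproteasome subunit Psmb9 (0.84), the class I gene H2-T22 (0.84) and the interferon-induced Bst2 (0.83). Exons of Psmb9 overlap Tap1, so shared reads could add to the likeness of Psmb9. The class II mean went with the share of counts from Tg (r 0.73, rho 0.54), with the summed dendritic cell markers (r 0.72, rho 0.57), the follicular markers (r 0.68, rho 0.47) and the endothelial markers (r 0.60, rho 0.44). Without the 2 libraries furthest from the median on each measure r was 0.58, 0.58, 0.49 and 0.45, and RW at 5 days replicate 3 was left out each time. Zbtb46 made up 52.2 to 76.5% of the dendritic sum by group and Ighm 61.6 to 89.95% of the B cell sum, so those sums rest largely on 1 gene each. Lyz2 made up 24.8 to 90.1% of the macrophage sum, which rests largely on it in some groups only. Tg made up 83.7 to 99.2% of the follicular sum, so that sum and the Tg share are not separate measures. The class II mean went against the skeletal muscle markers (r -0.63, rho -0.50, and r -0.52 without the 2 furthest libraries) and showed little relation to the macrophage markers (r -0.15, rho 0.03). With the B cell markers, a class II bearing cell type, it had r -0.68 and rho -0.43, and r -0.54 without the 2 furthest libraries. The class I and loading mean likewise went with the dendritic cell markers (r 0.66, rho 0.63) and the share of counts from Tg (r 0.64, rho 0.50). It went against the skeletal muscle markers (r -0.59, rho -0.56) and the B cell markers (r -0.62, rho -0.48). Without the 2 furthest libraries on each measure, these r were 0.54, 0.45, -0.46 and -0.49. With the interferon list the class I and loading mean had r 0.72 and rho 0.73, and r was 0.75 without the 2 furthest libraries. The class II mean had r 0.43 and rho 0.46 with the same list, and r 0.51 without the 2 furthest libraries.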

How the data were processed

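Whole-thyroid RNA of 50 libraries was sequenced as 50-base single-end reads, per the labels' protocols. The authors deposited a table of raw read counts per gene and a table of FPKM values, with symbols for 52403 of 52636 genes. The submitters' processing notes name GSNAP and limma. Neither the counting program, nor its strand setting, nor the genome build is given in the sources used here. The FPKM scaling relative to count size factors was 1.11 to 1.19 in aN1aN2 at 15 hours and the 5-day groups, except RW at 5 days replicate 3 (0.976), and 0.938 to 1.08 in the others, so FPKM is used to compare genes within a group. The members and gene lists were chosen with earlier results of these data known. A result on 1 gene of the interferon list is not reported here, and the gene was left out of that list.

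Counts were tested with edgeR's quasi-likelihood test (version 4.0.16, R 4.3.3), after filterByExpr (min.count 10, min.total.count 15) and scaling by TMM (robust fit, two-sided, Benjamini-Hochberg over all genes tested, threshold 0.05). Each time or set was fitted with all its groups, and changes with time in a fit of 40 libraries. The script was tested on simulated data for aJ1aJ2 against RW at 15 hours: at a dispersion of 0.02 (18825 genes) it recovered 97% of 2-fold and 100% of 4-fold changes, and at 0.2 (19015 genes) 3% and 84%. Of 100 pairs of libraries within groups, none agreed within sampling noise (smallest chi-square per degree of freedom 15.6). Alternatives used RLE scaling, no filter, DESeq2 1.42.0, limma 3.58.1 (voom quality weights, or FPKM with pseudocounts of 0.1 and 1), a replicate block, the 2 groups compared, all 50 libraries, and each library left out. Dropping TMM, leaving out libraries with over 5% muscle marker counts and leaving out those rich in thymocyte markers (over 200 CPM without TMM) were added after seeing the data. Named are all members, called pathway genes (at most 10 per comparison, by smallest p), called markers where a list has at most 4, and the 5 genes most alike in pattern. Depth was 15271242 to 52835846 counts per library.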

Additional observations from a re-analysis of the deposited data

Results flagged for a closer look

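Among the 100 sets of 5 libraries (10 genes in 10 groups), 16 had 1 library far from the other 4, with a gap to the nearest library above 0.710 of the range, where chance gives about 1 set in 20. The 10 genes vary together over the same libraries, so the sets are not separate draws and the 16 cannot be set against that rate. All 16 came from the libraries named below. aJ1aJ2 of the first 7-day set replicate 2 was the lowest library of its group for H2-Aa (53.1 CPM), H2-Ab1 (40.3 CPM), H2-Eb1 (40.4 CPM) and Cd74 (138 CPM). RW at 5 days replicate 3 was the lowest library of its group for H2-Aa (40.5 CPM), H2-Ab1 (21.9 CPM), Ciita (1.63 CPM), H2-K1 (90.6 CPM), H2-D1 (103 CPM) and Tap1 (5.79 CPM). aJ1aJ2 at 5 days replicate 3 was the lowest library of its group for Cd74 (166 CPM) and H2-K1 (169 CPM). RW at 15 hours replicate 5 was the lowest library of its group for Ciita (4.27 CPM). aN1aN2 at 5 days replicate 4 was the highest library of its group for Ciita (12.5 CPM), Tap1 (33.8 CPM) and Psmb8 (49.5 CPM). RW at 15 hours replicate 5 held 5.77% muscle marker and 14.5% Tg counts. Muscle marker and Tg shares of the other libraries named here are given with the results, and their part in these values was not tested.

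The effect of an antibody against RW differed between times for some pathway genes by the interaction test (adjusted p below the threshold of 0.05 in edgeR), with log2 differences as follows. For aJ1aJ2 at 5 days minus 15 hours the difference was -0.58 for Erap1, -0.54 for Jak1, -2.16 for Irf7, -1.64 for Gbp2, -1.87 for Gbp3, -2.92 for Isg15 and -2.16 for Ifit1. For aN1aN2 at 5 days minus 15 hours the difference was -0.48 for Jak1, -1.91 for Irf7, -1.14 for Gbp2, -1.90 for Gbp3, -2.25 for Isg15 and -2.08 for Ifit1. For aJ1aJ2 at 7 days minus 15 hours the difference was -2.79 for Irf7, -1.53 for Gbp2, -1.82 for Gbp3, -3.49 for Isg15, -3.13 for Ifit1 and -2.50 for Ifit3. The call of Erap1 was lost in 11 of the 40 fits with 1 library left out (RW replicates 2, 4 or 5 or aJ1aJ2 replicates 2, 4 or 5 at 15 hours, and RW replicates 1, 2 or 4 or aJ1aJ2 replicates 4 or 5 at 5 days). Of the 10 MHC and presentation genes, 0 passed this test.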

How the results depend on the processing

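Every estimate that crossed 0 below belongs to a member that was not called, and the causes were not tested. Depth limits Ciita most, at 0.611 CPM in its lowest library. The biological coefficient of variation was 0.447 at 15 hours, 0.526 at 5 days, 0.301 in the first and 0.389 in the second 7-day set. The replicate numbers do not pair the libraries (correlations of same-numbered deviations ran from -0.674 to 0.801, and not every library went best with its own number), so the replicate block is given here only. Estimates are log2 fold changes against RW, and in the second 7-day set of aN1aN2aN3 against aJ1aJ2. FPKM was not tested for aN1aN2 against RW at 15 hours, where its scaling differs between the groups.

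With the replicate block, genes called were 36 (aJ1aJ2 15 h), 186 (aN1aN2 15 h), 1 (aJ1aJ2 5 d) and 2100 (second set), and estimates on the other side of 0 were Cd74 0.0311 and H2-K1 0.00366 (aJ1aJ2 5 d), Cd74 0.113 (aN1aN2 5 d), H2-D1 0.0439 (aN1aN2 5 d less 15 h). With DESeq2, genes called were 265 (aJ1aJ2 15 h), 842 (aN1aN2 15 h), 522 (aJ1aJ2 5 d), 402 (aN1aN2 5 d) and 417 (aJ1aJ2 7 d), and members called were 1 (aJ1aJ2 15 h) and 2 (second set), and estimates on the other side of 0 were H2-Aa 0.00599 (aJ1aJ2 15 h). With voom with library quality weights, genes called were 176 (aJ1aJ2 15 h), 509 (aN1aN2 15 h), 3476 (aJ1aJ2 5 d), 1523 (aN1aN2 5 d), 595 (aJ1aJ2 7 d) and 8248 (second set), and members called were 1 (aJ1aJ2 5 d), 1 (aN1aN2 5 d), 1 (aJ1aJ2 7 d), 4 (second set), 1 (aJ1aJ2 5 d less 15 h) and 1 (aJ1aJ2 7 d less 15 h), and estimates on the other side of 0 were H2-Aa 0.0128 (aJ1aJ2 15 h), H2-D1 -0.00210 (aN1aN2 15 h), H2-D1 -0.0872 (aJ1aJ2 5 d), H2-Aa -0.131, H2-Ab1 -0.223, H2-Eb1 -0.178, Ciita -0.0805, H2-K1 -0.209, H2-D1 -0.171, Tap1 -0.119 and Psmb8 -0.158 (aN1aN2 5 d), H2-Ab1 -0.0782, H2-Eb1 -0.0291 and Ciita -0.0530 (aJ1aJ2 5 d less 15 h), Ciita -0.124, H2-K1 -0.0744 and Tap1 -0.272 (aN1aN2 5 d less 15 h). Without libraries rich in skeletal muscle markers, genes called were 48 (aJ1aJ2 15 h), 1600 (aJ1aJ2 5 d), 182 (aN1aN2 5 d) and 12 (aJ1aJ2 7 d), and estimates on the other side of 0 were H2-Aa 0.0783 (aJ1aJ2 15 h), H2-D1 -0.0730 (aJ1aJ2 5 d), H2-Aa -0.107, H2-Ab1 -0.204, H2-Eb1 -0.132, Ciita -0.110, H2-K1 -0.155, H2-D1 -0.123, Tap1 -0.194 and Psmb8 -0.189 (aN1aN2 5 d), H2-Ab1 -0.0556, H2-Eb1 -0.00408 and Ciita -0.0321 (aJ1aJ2 5 d less 15 h), Ciita -0.208, H2-K1 -0.0846 and Tap1 -0.378 (aN1aN2 5 d less 15 h). With only the 2 groups compared, genes called were 48 (aJ1aJ2 15 h) and 0 (aJ1aJ2 5 d). With limma-trend on FPKM, pseudocount 1, genes called were 18 (aJ1aJ2 15 h), 58 (aJ1aJ2 5 d) and 1 (aN1aN2 5 d), and estimates on the other side of 0 were Cd74 0.110 and H2-K1 0.0533 (aJ1aJ2 5 d), Cd74 0.0829 (aN1aN2 5 d). With all 50 libraries in one fit, genes called were 162 (aJ1aJ2 15 h), 475 (aN1aN2 15 h), 403 (aJ1aJ2 5 d), 671 (aN1aN2 5 d) and 6 (aJ1aJ2 7 d), and members called were 3 (second set), and estimates on the other side of 0 were Cd74 0.00118 (aJ1aJ2 5 d). With RLE size factors, estimates on the other side of 0 were H2-Aa 0.00599 (aJ1aJ2 15 h). With no filter on low counts, genes called were 9 (aJ1aJ2 5 d) and 20 (aJ1aJ2 7 d), and estimates on the other side of 0 were H2-Aa 0.00876 (aJ1aJ2 15 h), H2-K1 -0.00513 (aN1aN2 5 d). With no TMM scaling, genes called were 16 (aJ1aJ2 5 d) and 2 (aJ1aJ2 7 d), and estimates on the other side of 0 were Cd74 0.124, B2m 0.0130 and H2-K1 0.0993 (aJ1aJ2 5 d), B2m 0.00435 (aN1aN2 5 d), Cd74 0.0645 (aJ1aJ2 5 d less 15 h), H2-D1 0.132 and Psmb8 0.206 (aN1aN2 5 d less 15 h). Without libraries rich in thymocyte markers, genes called were 50 (aJ1aJ2 5 d), and estimates on the other side of 0 were H2-Ab1 -0.0644, H2-Eb1 -0.0240, Ciita -0.0201 and Psmb8 -0.0993 (aN1aN2 5 d), Ciita -0.128 and Tap1 -0.197 (aN1aN2 5 d less 15 h). With limma-trend on FPKM, pseudocount 0.1, estimates on the other side of 0 were Cd74 0.120 and H2-K1 0.0574 (aJ1aJ2 5 d), Cd74 0.0952 (aN1aN2 5 d).

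With 1 library left out, genes called ran over 35 to 127 (aJ1aJ2 15 h), 120 to 444 (aN1aN2 15 h), 0 to 197 (aJ1aJ2 5 d), 0 to 9 (aN1aN2 5 d), 0 to 20 (aJ1aJ2 7 d) and 2042 to 4305 (second set), and members called over 0 to 1 (aJ1aJ2 15 h) and 0 to 2 (second set), with 0 in every such fit of the other 7 comparisons and changes with time. With 1 library left out, estimates that crossed 0 ranged as follows: H2-Aa -0.0952 to 0.193, H2-Ab1 -0.0182 to 0.306, H2-Eb1 -0.0217 to 0.302 and Cd74 -0.0540 to 0.260 (aJ1aJ2 15 h), Ciita -0.174 to 0.321, H2-K1 -0.119 to 0.140 and H2-D1 -0.0380 to 0.194 (aN1aN2 15 h), H2-Aa -0.0684 to 0.329, H2-Ab1 -0.0130 to 0.381, H2-Eb1 -0.00366 to 0.412, Cd74 -0.255 to 0.1997, H2-K1 -0.255 to 0.0741, H2-D1 -0.109 to 0.154 and Psmb8 -0.00109 to 0.284 (aJ1aJ2 5 d), H2-Aa -0.0888 to 0.254, H2-Ab1 -0.119 to 0.226, H2-Eb1 -0.159 to 0.214, Cd74 -0.372 to 0.0246, Ciita -0.0201 to 0.487, H2-K1 -0.214 to 0.101, H2-D1 -0.151 to 0.120 and Psmb8 -0.0993 to 0.514 (aN1aN2 5 d), H2-Aa -0.116 to 0.339, H2-Ab1 -0.151 to 0.300, H2-Eb1 -0.142 to 0.331, Cd74 -0.374 to 0.139 and Ciita -0.180 to 0.219 (aJ1aJ2 5 d less 15 h), Cd74 -0.0709 to 0.367, Ciita -0.129 to 0.498, H2-K1 -0.219 to 0.131, H2-D1 -0.236 to 0.0729, Tap1 -0.198 to 0.180 and Psmb8 -0.469 to 0.140 (aN1aN2 5 d less 15 h). Single libraries that moved a count by over 1.5 times were these. Genes called (aJ1aJ2 15 h) were 35 without RW replicate 2, 64 without RW replicate 3, 36 without RW replicate 4, 55 without aJ1aJ2 replicate 2, 64 without aJ1aJ2 replicate 3 and 53 without aJ1aJ2 replicate 5. Members called (aJ1aJ2 15 h) were 1 without RW replicate 1. Genes called (aN1aN2 15 h) were 183 without RW replicate 1, 170 without RW replicate 2, 158 without RW replicate 3, 120 without RW replicate 4, 200 without aN1aN2 replicate 1 and 199 without aN1aN2 replicate 2. Genes called (aJ1aJ2 5 d) were 7 without RW replicate 1, 8 without RW replicate 2, 197 without RW replicate 3, 16 without RW replicate 4, 7 without RW replicate 5, 7 without aJ1aJ2 replicate 1, 0 without aJ1aJ2 replicate 2, 10 without aJ1aJ2 replicate 4, 9 without aJ1aJ2 replicate 5, 14 without aN1aN2 replicate 2, 12 without aN1aN2 replicate 3, 50 without aN1aN2 replicate 4 and 12 without aN1aN2 replicate 5. Genes called (aN1aN2 5 d) were 9 without RW replicate 3. Genes called (aJ1aJ2 7 d) were 20 without RW replicate 4, 1 without RW replicate 5, 9 without aJ1aJ2 replicate 1 and 12 without aJ1aJ2 replicate 2. Genes called (second set) were 2298 without aN1aN2aN3 replicate 2, 2042 without aN1aN2aN3 replicate 3 and 2263 without aN1aN2aN3 replicate 5. Members called (second set) were 2 without aJ1aJ2 replicate 5.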
